A study of Mus musculus with 6 samples.

Results

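The gene set described here is the Myc, Max and antagonist network, 10 genes chosen by name (Myc, Mycn, Mycl, Max, Mxd1, Mxd3, Mxd4, Mxi1, Mnt and Mga) among the 49315 genes counted in the series, and all 10 were found. Bulk RNA-seq was collected from LT-HSCs (lineage-negative, Sca1-positive, cKit-positive cells that were CD48-CD34-CD150+), ST-HSCs (CD48-CD34+CD150+) and MPPs (CD48-CD34+CD150-) of WT and ING4-/- mice. ING4-/- mice (CD45.2) lack Ing4, a chromatin reader of the inhibitor of growth family, and WT mice were C57BL/6 (CD45.2). The labels name no treatment. The study's control mice were young adults by the age its methods give, and an age for the ING4-/- mice pooled for these libraries and their strain background were not found in the sources used here. Each of the 3 populations was sequenced once per genotype, from 1000 to 10000 cells sorted out of the pooled marrow of 8 to 10 mice. The 3 populations therefore stood in for replicates of a genotype (n = 3), and p-values measure the spread between these libraries, not between mice.

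MYC proteins activate transcription only as dimers with MAX, which bind the E-box and recruit acetyltransferases and elongation factors to genes of growth and ribosome synthesis. MAX also pairs with the MXD proteins (MXD1, MXD3, MXD4 and MXI1), with MNT and with MGA, and these dimers compete for the same sites and bring in the SIN3 histone deacetylase complex or, for MGA, a variant Polycomb complex. In blood, Myc is known for moving stem cells out of the niche and into division, Mycn partly overlaps with it in stem cell survival, and MXD proteins accompany exit from the cell cycle.

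The libraries differed in depth and in background, and both bear on every value below. WT libraries held 7839326, 8047002 and 9363442 counts (LT-HSCs, ST-HSCs and MPPs), and ING4-/- libraries held 35596876, 37811937 and 39192588. Counts on 1429 olfactory and vomeronasal receptor genes, which marrow cells are not known to use, averaged 18.1 to 22.7 per kb of exon in WT libraries and 0.0387 to 0.0853 in ING4-/- libraries. WT values near that density cannot be told apart from background, and the density times the exonic length of a gene gives the background count to set beside its WT counts. The targeted gene Ing4 had 247 counts in the WT LT-HSC library, 162 in that of ST-HSCs and 247 in that of MPPs, and 0, 24 and 76 in the corresponding ING4-/- libraries, and its WT counts were 2.07, 1.34 and 2.57 times background (log2 fold change -4.49, SE 1.56, edgeR adjusted p = 0.0373, and 0.0783 with population as a replicate block). All 15 HSPC markers were found, with a summed CPM (counts scaled to library size) of 2987 to 4227 in WT and 2910 to 4826 in ING4-/- libraries. Other cells were to be removed by lineage depletion and the lineage stain (B220, CD3e, CD11b, Gr-1 and Ter119). Of their genes, granulocyte and monocyte markers summed to 425 to 603 CPM in WT and 824 to 934 in ING4-/- libraries, erythroid markers to 37.6 to 64.7 and 93.5 to 192, B cell markers to 116 to 163 and 57.6 to 110 with 6 of 8 at 0 in each ING4-/- library, and T and NK cell markers to 123 to 193 and 54.1 to 258. Single genes carried much of these sums, with Lyz2 alone at 351 to 432 CPM in WT and 659 to 766 in ING4-/- libraries. Nkg7, of the T and NK list, was at 9.95 to 98.9 and 23.7 to 223 CPM. In ING4-/- libraries 2 to 3 of 10 granulocyte and monocyte markers and 6 to 8 of 10 T and NK markers were at 0, against 0 in WT. A sum is therefore not the direction of every marker in its list. Of the gate genes, Slamf1 (CD150) had 986, 755 and 336 counts in WT and 3470, 888 and 299 in ING4-/- libraries, and Cd48, whose protein the gates exclude, had 50, 154 and 376 in WT and 0, 1077 and 4300 in ING4-/- libraries. The part of any of these in the results on the Myc network was not tested. In bulk RNA, fewer cells of a type and less RNA per cell cannot be told apart.

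Promoter sequence is shown for 4 members, Mycn and Mga because they passed the test between genotypes, and Mxd4 and Mnt because the E-box to which MAX dimers bind lies in theirs. The sequences are the 250 bases upstream of the RefSeq start on GRCm38.p6, written 5′ to 3′ on the strand of the gene, with matches in capitals.
Mycn promoter (chr12:12941837-12942086, minus strand): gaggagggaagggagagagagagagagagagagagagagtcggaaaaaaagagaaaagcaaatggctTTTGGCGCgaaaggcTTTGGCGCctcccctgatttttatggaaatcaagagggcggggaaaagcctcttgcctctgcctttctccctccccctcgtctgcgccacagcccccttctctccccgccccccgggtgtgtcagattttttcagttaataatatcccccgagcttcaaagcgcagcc
Mga promoter (chr2:119896978-119897227, plus strand): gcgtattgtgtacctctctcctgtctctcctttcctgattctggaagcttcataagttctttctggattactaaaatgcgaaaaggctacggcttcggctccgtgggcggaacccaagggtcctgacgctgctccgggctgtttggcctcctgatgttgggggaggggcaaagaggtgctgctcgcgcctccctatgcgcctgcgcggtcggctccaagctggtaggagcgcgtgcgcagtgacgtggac
Mxd4 promoter (chr5:34187711-34187960, minus strand): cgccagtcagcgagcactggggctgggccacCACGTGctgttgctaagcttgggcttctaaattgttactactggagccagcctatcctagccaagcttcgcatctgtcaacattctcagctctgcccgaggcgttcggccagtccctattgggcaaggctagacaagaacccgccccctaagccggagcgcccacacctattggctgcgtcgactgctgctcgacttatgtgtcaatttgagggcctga
Mnt promoter (chr11:74830674-74830923, plus strand): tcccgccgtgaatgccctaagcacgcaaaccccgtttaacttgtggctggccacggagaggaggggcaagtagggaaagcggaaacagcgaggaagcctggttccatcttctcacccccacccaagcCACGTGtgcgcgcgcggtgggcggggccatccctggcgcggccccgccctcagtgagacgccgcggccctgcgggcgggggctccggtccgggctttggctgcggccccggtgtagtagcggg
Windows of 300 bases, 250 upstream and 50 downstream of the start, were searched for the E-box CACGTG, which reads the same on both strands, and for the letters TTTGGCGC of E2F, a family of cell cycle factors of which E2F6 sits beside MGA, on either strand (GCGCCAAA), and neither motif overlaps the other. RefSeq windows were matched for 9 of the 10 members, 11 windows in all, and Myc was not matched. The capitals in Mycn mark 2 E2F matches, starting 183 and 168 bases upstream, and Mycn was the 1 member with such a match, against 169 of 32851 promoter windows of the genome (0.514%). The capitals in Mxd4 and Mnt mark an E-box starting 219 and 123 bases upstream. Max held an E-box too, starting 3 bases upstream and crossing the start, so 3 members had one, against 2349 of 32851 windows (7.15%). The window of Mga held neither motif. A match is a description of letters and no evidence of a bound site.

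Among the MYC proteins, Myc itself dominated every library. Myc (ENSMUSG00000022346, mm10 chr15:61985391-61990374, plus strand, 2717 bases of exon), the widely used member of the family, had 2107, 2219 and 3275 counts in WT libraries (always given in the order of LT-HSCs, ST-HSCs, MPPs) and 14547, 14370 and 17366 in ING4-/- libraries. As TPM, counts per length scaled to the same total in every library, this was 212, 193 and 273 in WT and 302, 278 and 307 in ING4-/- cells. It was the highest member in all 6 libraries, at 226 ± 41.5 TPM in WT and 296 ± 15.5 TPM in ING4-/- libraries (mean ± SD, n = 3), and its WT counts were 34.6 to 66.6 times the background predicted for its length.

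Mycn (ENSMUSG00000037169, chr12:12936096-12941914, minus strand, 3292 bases of exon), which encodes N-MYC, had 879, 531 and 554 counts in WT, 7.09 to 11.9 times background, and 8121, 4502 and 5360 in ING4-/- cells. Its level was 73.1, 38.2 and 38.1 TPM in WT and 139, 72.0 and 78.3 TPM in ING4-/- cells. LT-HSCs held the highest Mycn of each genotype, and the 2 other populations lay close to each other. Mycn reached 0.344 of the TPM of Myc in WT LT-HSCs against 0.198 in ST-HSCs and 0.140 in MPPs, and in ING4-/- cells 0.461 against 0.259 and 0.255, so that LT-HSCs stood highest in both genotypes. Mycl (ENSMUSG00000028654, chr4:122995652-123002485, plus strand, 4038 bases of exon), which encodes L-MYC, had 2, 4 and 5 counts in WT, below the 90.5, 91.8 and 73.1 that background predicted, and 0 counts in all 3 ING4-/- libraries, where 0 counts allow up to 3. Mycl was thus not detected above background in any of the 6 libraries, and it was below the filter for low counts in the test between genotypes.

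**Figure D1:**
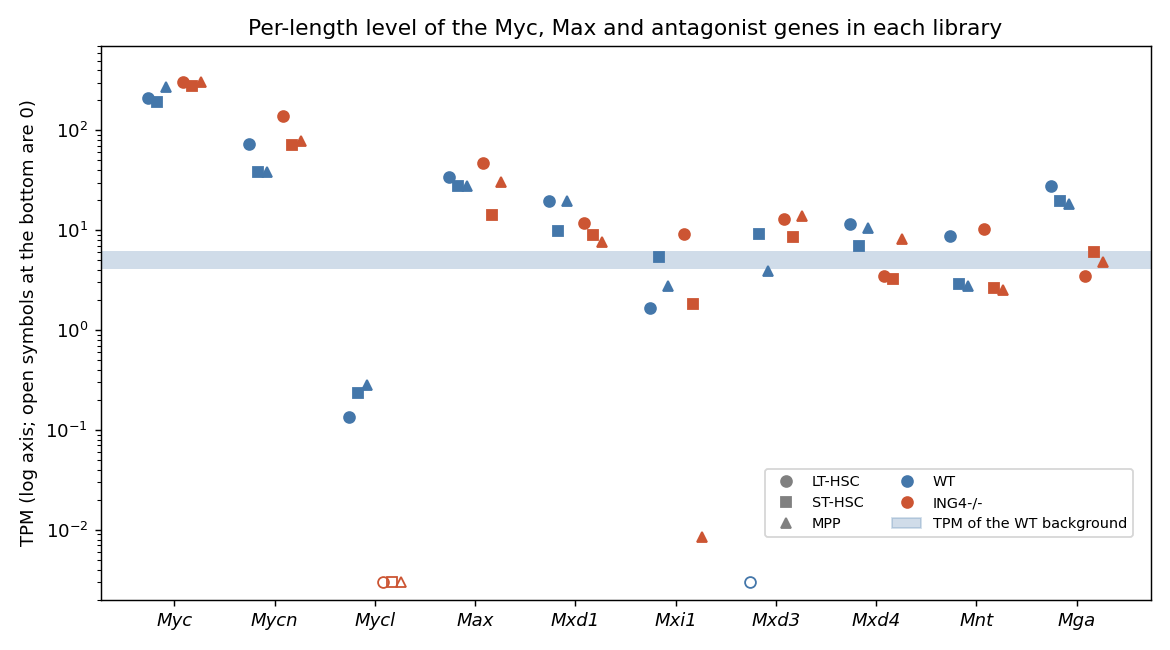
TPM (y axis, log scale) of the 10 genes (x axis) in each library, with circles, squares and triangles for LT-HSCs, ST-HSCs and MPPs, blue for WT and red for ING4-/-, open symbols at the bottom for libraries with 0 counts, and a band for the mean background of the WT libraries, 4.10 to 6.13 TPM. Myc is at the top in every library, at 193 to 307 TPM, and Mycl lies below the band in all 6 libraries.

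Max (ENSMUSG00000059436, chr12:76937269-76962248, minus strand, 2005 bases of exon), the obligate partner, had 250, 237 and 243 counts in WT, 5.20 to 6.70 times background, and 1658, 546 and 1281 in ING4-/- cells. Its level was 34.1, 28.0 and 27.4 TPM in WT and 46.6, 14.3 and 30.7 TPM in ING4-/- cells, so the WT values lay within the range of the ING4-/- values. Summed TPM of the 3 MYC genes was 8.36, 8.28 and 11.3 times that of Max in WT, and 9.46, 24.4 and 12.6 times in ING4-/- cells. The highest of these ratios was that of ING4-/- ST-HSCs, where Max was lowest.

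The MXD repressors were present at much lower levels. Mxd1 (ENSMUSG00000001156, chr6:86647042-86669161, minus strand, 7072 bases of exon), the founding member that rises as cells differentiate, had 501, 296 and 608 counts in WT and 1493, 1192 and 1127 in ING4-/- cells, or 19.4, 9.91 and 19.5 against 11.9, 8.87 and 7.66 TPM. Its WT counts were 1.84 to 4.75 times background. Mxd4 (ENSMUSG00000037235, chr5:34173883-34187720, minus strand, 8483 bases of exon) had 361, 247 and 390 counts in WT, 1.28 to 2.54 times background, and 525, 524 and 1444 in ING4-/- cells, or 11.6, 6.89 and 10.4 against 3.49, 3.25 and 8.19 TPM. For both genes the ranges of the 2 genotypes overlapped, and in WT Mxd4 lay closer to background than Myc, Mycn, Max or Mga did.

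Mxd3 (ENSMUSG00000021485, chr13:55325168-55329758, minus strand, 2081 bases of exon), the MXD gene linked to S phase in dividing cells, had 0, 80 and 36 counts in WT, at most 1.69 times background, and 479, 340 and 597 in ING4-/- cells. In TPM this was 0, 9.10 and 3.92 in WT and 13.0, 8.60 and 13.8 in ING4-/- cells, and the ranges overlapped on that scale. Of its exonic sequence, 5.00% lies opposite Prelid1, which had 811 to 1152 counts in WT and 7543 to 9441 in ING4-/- libraries, and without a stated strand setting reads there cannot be told apart. Mxi1 (ENSMUSG00000025025, chr19:53310506-53375810, plus strand, 5619 bases of exon), also called MXD2, had 34, 128 and 69 counts in WT, at or below the background of 126, 128 and 102, and 905, 193 and 1 in ING4-/- cells, or 1.66, 5.39 and 2.78 against 9.08, 1.81 and 0.00856 TPM. No WT library separated Mxi1 from background, while the ING4-/- libraries ran from 905 counts to 1.

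Mnt (ENSMUSG00000000282, chr11:74830920-74845725, plus strand, 4627 bases of exon), the repressor present in most tissues, had 147, 57 and 56 counts in WT, 0.542 to 1.42 times background, and 853, 232 and 242 in ING4-/- cells. LT-HSCs were highest in both genotypes, at 8.70 TPM in WT against 2.92 and 2.74, and at 10.4 TPM in ING4-/- cells against 2.64 and 2.52. Mga (ENSMUSG00000033943, chr2:119897228-119969581, plus strand, 15340 bases over 24 merged exons), a very large protein that carries a T-box domain beside its MAX-binding domain, had 1558, 1271 and 1232 counts in WT, 3.64 to 4.53 times background, and 948, 1770 and 1530 in ING4-/- cells. At 27.8, 19.6 and 18.2 TPM in WT and 3.49, 6.07 and 4.80 TPM in ING4-/- cells, the genotypes did not overlap, and Mga moved from the 4th to the 8th place among the members by mean TPM.

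In WT libraries the order by mean TPM was Myc, Mycn, Max, Mga, Mxd1, Mxd4, Mnt, Mxd3, Mxi1 and Mycl. Neighbours in that order did not overlap between libraries only for Myc and Mycn, Mycn and Max, and Mxi1 and Mycl. In ING4-/- libraries the order was Myc, Mycn, Max, Mxd3, Mxd1, Mnt, Mxd4, Mga, Mxi1 and Mycl. There Myc and Mycn, Mycn and Max, and Max and Mxd3 did not overlap. Mxi1 and Mycl were set apart only by 1 count against 0 in MPPs, and 0 counts allow up to 3, so they were not separated. In WT libraries both of these genes lay at or below background. The MYC genes made up 73.4, 73.9 and 78.6% of the summed TPM of the 10 genes in WT, and 81.8, 88.5 and 85.1% in ING4-/- cells. The share of Mnt and Mga was 9.39, 7.19 and 5.28% in WT and 2.58, 2.20 and 1.61% in ING4-/- cells, that of the MXD genes 8.41, 9.98 and 9.23% against 6.95, 5.69 and 6.54%. These shares are descriptions, and background takes a larger part of the lower members in WT. Over the MXD genes, for instance, summed MYC TPM was 8.73, 7.41 and 8.51 times as high in WT and 11.8, 15.6 and 13.0 times in ING4-/- cells, but after subtracting background the WT ratios were 14.5, 22.6 and 14.0.

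The comparison of the 3 ING4-/- with the 3 WT libraries asked which members differed without Ing4. In edgeR, called genes had an adjusted p under 0.05 and a log2 fold change beyond 1. Of the 9 members tested, 1 rose, Mycn, and 1 fell, Mga, while 64.6% of all 31001 genes tested were called, 7.98% higher and 56.7% lower. The count of members lay below that background, so it is no result about the network. The median log2 fold change of all genes was -6.85, and that of the 9673 genes with 10 or more counts in every library was 0.52 in the same fit. The fit restricted to those genes called 18.0% of them, 8.30% higher and 9.68% lower, and 1 member, Mga. With other scalings the median of all genes moved to -7.17 (DESeq2 size factors) and -6.35 (upper quartile). Myc then lay at 0.52 and 1.46, Mycn at 1.09 and 2.05 and Mga at -2.06 and -1.09, with Myc called under the upper quartile as well. Relative to the 0.52 of the reported fit, Mycn lay at 0.93 and Mga at -2.21 on the log2 scale.

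Mycn was at 92.6, 57.2 and 54.4 TMM-normalised CPM in WT and at 259, 142 and 158 CPM in ING4-/- cells, with each ING4-/- library above all WT libraries, as for 12.0% of all genes tested and 35.9% of those with 10 or more counts in every library. CPM of the members is TMM-normalised from here on. The difference was 1.46 on the log2 scale (SE 0.339, edgeR adjusted p = 0.00635), a 2.74-fold rise, with log2 ratios of 1.49, 1.31 and 1.54 in the 3 populations. The call was lost among genes with 10 or more counts in every library (0.94, adjusted p = 0.0833) and after subtracting background (0.81, adjusted p = 0.115).

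Mga was at 164, 137 and 121 CPM in WT and at 30.3, 56.0 and 45.1 CPM in ING4-/- cells, with each ING4-/- library below all WT libraries, as for 62.9% of all genes tested and 13.1% of those with 10 or more counts in every library. The difference was -1.68 (SE 0.297, edgeR adjusted p = 0.00166), a 3.21-fold fall, with log2 ratios of -2.43, -1.29 and -1.42. Mga has the longest exonic sequence of the 10 members, and fold changes moved with length across genes. Among genes with 10 or more counts in every library, the median log2 fold change was 1.26 under 2 kb (1835 genes), 0.83 at 2 to 4 kb, 0.43 at 4 to 6 kb, -0.062 at 6 to 10 kb and -0.93 over 10 kb (730 genes, of which 31.9% were called lower and 1.64% higher). Myc (0.87) lay near the median of its bin of 2 to 4 kb, Mycn (1.46) above it, and Mga (-1.68) below the median of the longest bin. A setting added once the data had been seen removed the trend on length among genes with 10 or more counts in every library. There Mga was at -0.27 (edgeR adjusted p = 0.568), and none of the 7 members tested was called. With that minimum of counts alone, Mga was at -2.21 (edgeR adjusted p = 0.00221) and called, while Mycn was not.

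**Figure D2:**
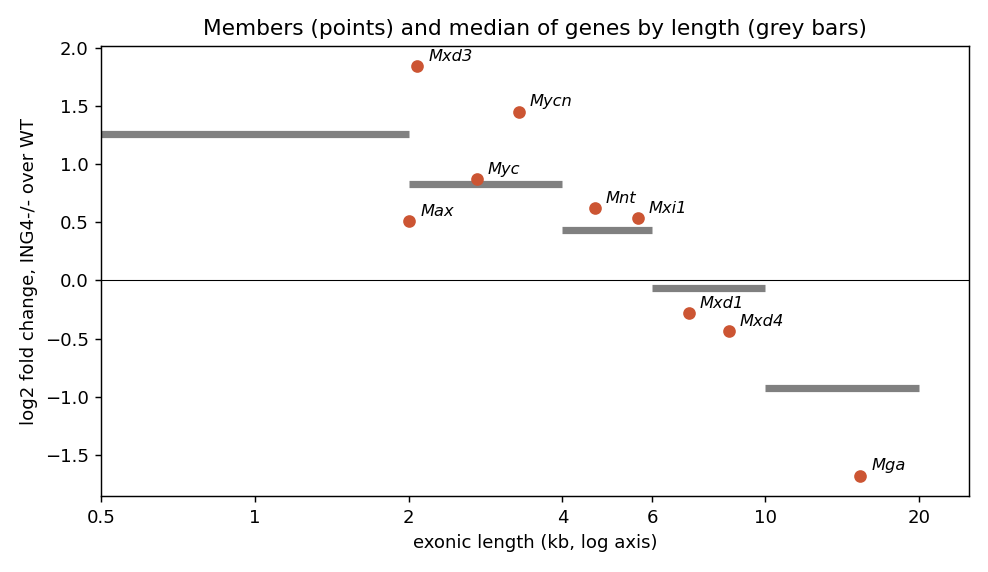
Log2 fold change of ING4-/- over WT (y axis) against exonic length in kb (x axis, log scale), with the 9 tested members as red points and, as grey bars, the medians of genes with 10 or more counts in every library by bin of length. The medians descend from 1.26 under 2 kb to -0.93 over 10 kb, and the members range from Mxd3 at 1.84 to Mga at -1.68, with Max at 0.51 below the bars of its length.

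Myc was at 222, 239 and 321 CPM in WT and at 465, 454 and 512 CPM in ING4-/- cells, with no overlap between the genotypes. The difference was 0.87 (SE 0.190, edgeR adjusted p = 0.00463), 1.83-fold, which passed the adjusted p, as 66.4% of all genes did, and not the minimum fold. Log2 ratios were 1.07, 0.93 and 0.67 in LT-HSCs, ST-HSCs and MPPs. After subtracting background the value was 0.097 (adjusted p = 0.688), and among genes with 10 or more counts it was 0.38 (adjusted p = 0.139).

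The remaining members did not pass. Mxd3 was at 1.84 (SE 1.44, edgeR adjusted p = 0.301). Each ING4-/- library lay above all WT libraries in TMM-normalised CPM but not in CPM scaled to library size alone (8.99 in ING4-/- against 9.94 in WT ST-HSCs). In LT-HSCs its level was at least 48.4-fold higher without Ing4, taking the 0 of the WT library at 3 counts. This bound covers counting error only and rests on 1 WT library, for which background predicted 46.6 counts. The log2 ratios of Mxd3 in ST-HSCs and MPPs were 0.32 and 2.29. Max was at 0.51 (SE 0.482, adjusted p = 0.390), Mnt at 0.62 (SE 0.788, adjusted p = 0.526, with log2 ratios of 0.81, 0.25 and 0.37) and Mxi1 at 0.54 (SE 1.61, adjusted p = 0.794). The values below 0 were Mxd1 at -0.28 (SE 0.356, adjusted p = 0.522) and Mxd4 at -0.44 (SE 0.506, adjusted p = 0.484). With standard errors above 1 for Mxd3 and Mxi1, a change of 2-fold was not detectable in these genes.

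**Figure D3:**
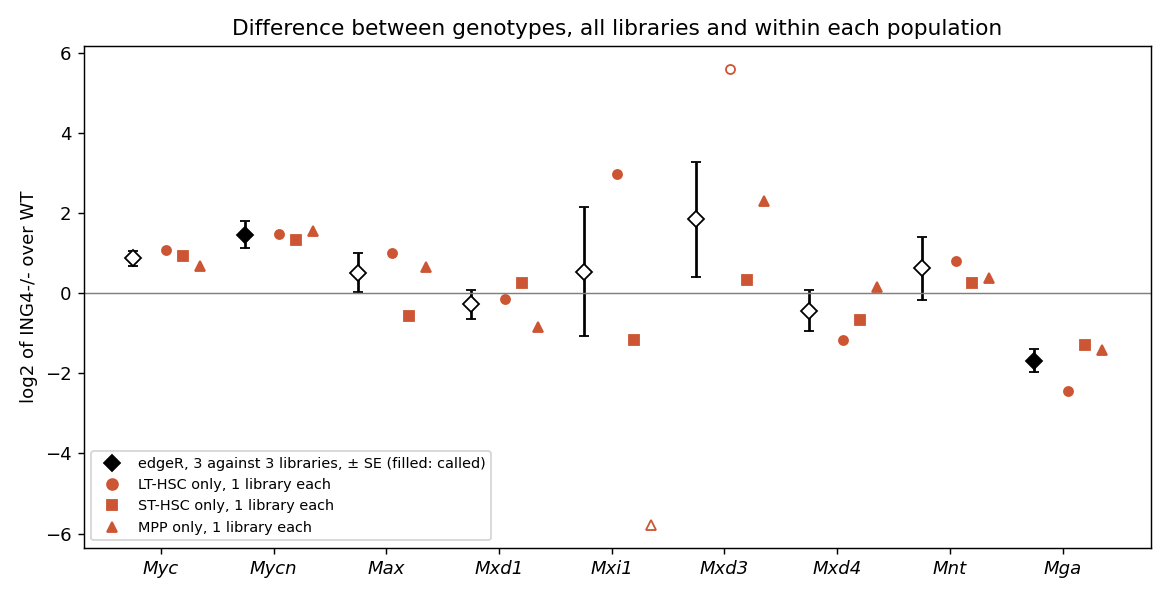
Log2 of ING4-/- over WT (y axis) for the 9 tested members (x axis), as edgeR fold changes (diamonds, filled where called, with bars of 1 SE) beside the ratio within LT-HSCs, ST-HSCs and MPPs (circles, squares and triangles, 1 library per genotype, open where a library held 3 or fewer counts). Mycn at 1.46 and Mga at -1.68 are called, Mxi1 ranges from 2.98 in LT-HSCs to -5.78 in MPPs, and the open circle of Mxd3 stands at its bound.

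The ratio between genotypes could be taken in each population from a single pair of libraries only, with no check by replicates. Across all genes, log2 ratios above 1 were found for 14.0, 13.6 and 9.89% and below -1 for 69.2, 67.9 and 66.9%. The sign differed between populations for 4 members. Max had log2 ratios of 1.01, -0.56 and 0.66, and Mxd1 had -0.15, 0.24 and -0.84. Mxd4 had -1.18, -0.68 and 0.15. Mxi1 had 2.98, -1.16 and -5.78, from WT counts at or below background in every WT library. Its scaled WT MPP counts were 230 times those of ING4-/- MPPs (95% counting interval 39.9 to 9201), from 69 counts against 1. The 69 lay below the 102 that background predicted, so neither value measures a WT level of Mxi1. For Max, Mxd4 and Mxi1 the ING4-/- libraries were spread more widely in CPM than the WT libraries.

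Populations were compared with genotype as a term, from 2 libraries each and with 2 residual degrees of freedom. No member was called in any of the 3 contrasts by edgeR or DESeq2, and edgeR called 0 of 36170 genes (0%) in each contrast, with 564, 624 and 183 genes (1.56, 1.73 and 0.506%) at an unadjusted p under 0.05 for MPPs over LT-HSCs, ST-HSCs over LT-HSCs and MPPs over ST-HSCs, while DESeq2 called 435, 285 and 168 (1.64, 1.01 and 0.730%). Mycn lay at -0.74 on the log2 scale in MPPs over LT-HSCs (SE 0.258, edgeR unadjusted p = 0.0313, adjusted p = 1), at -0.76 in WT and -0.72 in ING4-/- cells. In ST-HSCs over LT-HSCs it lay at -0.78 (SE 0.258, edgeR unadjusted p = 0.0256, adjusted p = 1), at -0.70 in WT and -0.87 in ING4-/- cells. Both genotypes gave the same direction for Mycn in these 2 contrasts.

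Mnt lay at -1.72 in MPPs over LT-HSCs (SE 1.18, edgeR unadjusted p = 0.200), at -1.48 in WT and -1.92 in ING4-/- cells. WT counts of Mnt were 0.542 to 1.42 times background, so its WT value cannot be told apart from background. In the same contrast Myc lay at 0.34 (SE 0.186, edgeR unadjusted p = 0.122), with 0.54 in WT and 0.14 in ING4-/- cells. The genotypes went apart for Mxi1, at 0.90 in WT and -7.87 in ING4-/- cells, and for Max in ST-HSCs over LT-HSCs, at -0.049 and -1.61. The WT counts of Mxi1 lay at or below background, so its WT value is no measure of Mxi1. The interaction of genotype and population left no residual degrees of freedom and could not be tested.

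**Figure D4:**
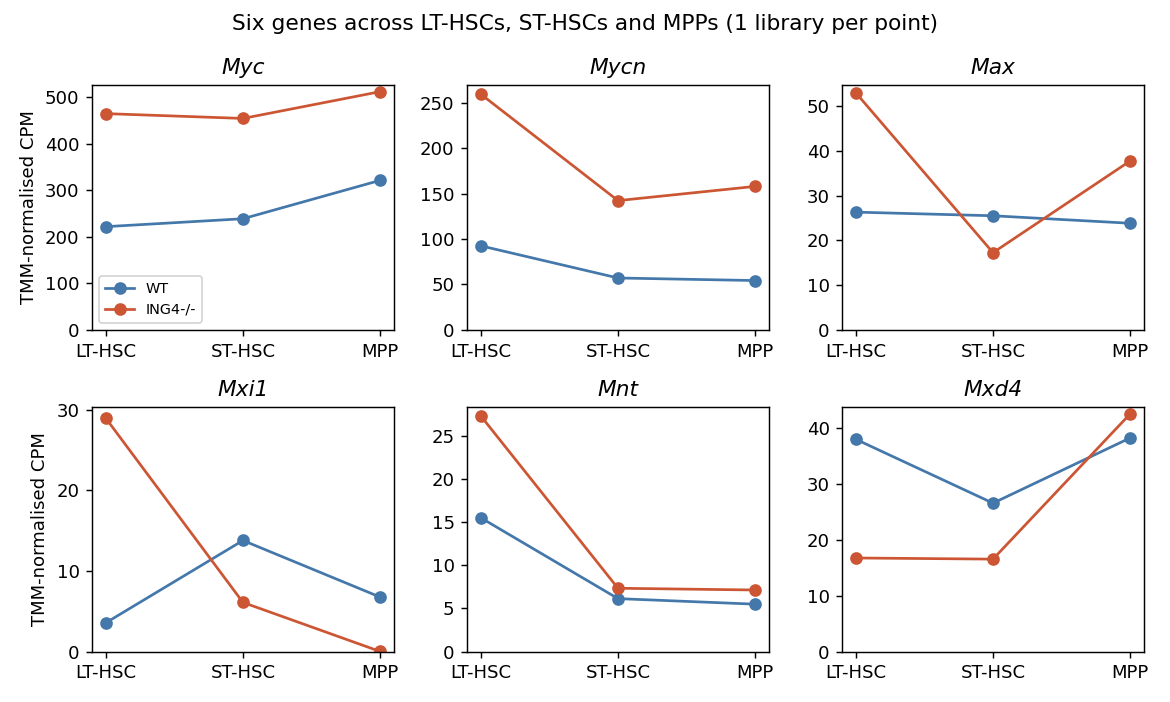
TMM-normalised CPM (y axis, from 0) of Myc, Mycn, Max, Mxi1, Mnt and Mxd4 in LT-HSCs, ST-HSCs and MPPs (x axis), blue for WT and red for ING4-/-, 1 library per point. Mycn and Mnt are highest in LT-HSCs in both genotypes, and the lines of Max, Mxi1 and Mxd4 cross. The WT points of Mxi1, and those of Mnt in ST-HSCs and MPPs, lie at or below background.

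Partners and targets of the network came from 7 lists of textbook genes, of which 44 of 110 tested genes were called, against 64.6% of all genes. By direction, 7.98% of all genes were called higher and 56.7% lower. Among genes with 10 or more counts in every library, the same fit called higher from 50.8% of those under 2 kb to 1.64% of those over 10 kb. The median of those genes in that fit was 0.52, to set beside the medians of the lists. In the Mlx branch, which couples MAX-like dimers to glucose, Mlx rose by 1.11 (SE 0.374, edgeR adjusted p = 0.0334) and Mlxip was at -0.44 (adjusted p = 0.478), and Mlx was not called with DESeq2 size factors in edgeR. Mlxipl had 32, 67 and 52 counts in WT, below the background of 124, 126 and 100, and 0 in all ING4-/- libraries. Of 18 genes of the SIN3 complex and corepressors, 6 rose and 1 fell, and 3 to 7 rose and 0 to 2 fell with 1 library left out. Of the called genes, Sap30 (2.19), a subunit of the complex, and Rbbp4 (1.45), a histone chaperone, were highest. The 1 that fell was Ncor1 (-1.67), a corepressor of nuclear receptors. The median was 0.73, and 1 rose and 1 fell among the 17 with 10 or more counts in every library, against 8.30% and 9.68% of such genes. With DESeq2 size factors in edgeR 2 rose and 1 fell, and with the upper quartile 10 rose and 0 fell. With a minimum of 10 counts and the trend on length removed 2 rose and 0 fell. Of all genes, these settings called 1342, 4556 and 879 higher and 18080, 17093 and 412 lower, out of 31001, 31001 and 9673.

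Of 17 coactivators, 4 rose and 2 fell, against 7.98% of all genes higher and 56.7% lower. Those that rose included Cdk9 (1.33), the kinase of elongation, and Smarcb1 (1.17), a subunit of the SWI/SNF remodeller. Those that fell were the acetyltransferase Ep300 (-2.81) and the remodeller Ep400 (-1.88). Among genes with 10 or more counts in every library 0 rose and 4 fell, against 8.30% of such genes higher and 9.68% lower. The same counts were found with DESeq2 size factors in edgeR. With a minimum of 10 counts and the trend on length removed 2 rose and 0 fell, so the balance of the list turned with the setting. The median was 0.19, below the 0.52 of genes with 10 or more counts in every library. Of 17 genes of MYC turnover, 3 rose and 2 fell, against the same 7.98% and 56.7% of all genes. Among those called, Fbxl14 (1.47) was highest, and those that fell were the ubiquitin ligases Fbxw7 (-4.49) and Huwe1 (-1.62). With DESeq2 size factors in edgeR 1 rose and 3 fell. Among the 14 with 10 or more counts in every library 0 rose and 2 fell, and 1 rose and 0 fell with the trend on length removed as well. With 1 library left out, 1 to 4 rose and 2 to 5 fell. The median as reported was 0.27, also below 0.52. Fbxl14 had an adjusted p of 0.0447 in edgeR, and 0.157 with population as a replicate block. Fbxw7, the ligase that marks phosphorylated MYC for degradation, had 406, 520 and 466 counts in WT, above the background of 158, 160 and 128, and 7, 129 and 72 in ING4-/- cells.

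Of the 10 partners of MGA in the variant Polycomb complex, 2 rose and 0 fell, against 7.98% of all genes higher and 56.7% lower. The 2 were E2f6 (1.18) and the heterochromatin protein Cbx3 (1.11). Neither passed among genes with 10 or more counts in every library or with DESeq2 size factors in edgeR. With 1 library left out, 0 to 3 of the partners rose and 0 fell. Of 35 textbook targets of MYC, 18 rose and 0 fell, against 7.98% of all genes higher and 56.7% lower. Among genes with 10 or more counts in every library, the same fit called higher 50.8% of those under 2 kb. That share was 31.0% at 2 to 4 kb, 15.1% at 4 to 6 kb and 6.56% at 6 to 10 kb. The part of length in the count of targets was not tested. Their median was 1.01, beside 0.52 for the genes with 10 or more counts. The highest were Srm, spermidine synthase, at 2.47 (SE 0.352, edgeR adjusted p = 0.000734), with 318, 435 and 555 counts in WT, above the background of 35.8, 36.4 and 28.9, and 5729, 11498 and 6784 in ING4-/- cells, and Nme2, a nucleoside diphosphate kinase, at 2.33 (SE 0.387, adjusted p = 0.00127). With DESeq2 size factors in edgeR 12 rose, against 1342 of 31001 genes, and with the upper quartile 26, against 4556 of 31001. Among the 34 with 10 or more counts in every library, 5 rose and 1 fell, against 8.30% of such genes higher and 9.68% lower. With the trend on length removed as well, 9 rose and 0 fell, against 879 and 412 of 9673 genes. Of 10 tested genes that MYC is known to repress, Ndrg2 rose (1.18) and 3 fell, among them Thbs1 (-4.79), an adhesive glycoprotein. Of all genes, 7.98% were called higher and 56.7% lower. The median of the list was 0.54, beside 0.52 for the genes with 10 or more counts. The WT counts of Thbs1 were 92 and 80 in LT-HSCs and ST-HSCs, below the background of 136 and 138, and 477 in MPPs, above the 110 of background, against 1, 2 and 76 in ING4-/- libraries. With the upper quartile 2 genes of this list rose and 1 fell, with DESeq2 size factors in edgeR 0 rose and 3 fell, and among the 8 with 10 or more counts in every library 0 rose and 1 fell. Cdh2, a cadherin, was at 151, 103 and 161 counts in WT, below the background of 181 and 183 in LT-HSCs and ST-HSCs and above the 146 in MPPs, and at 0 in all ING4-/- libraries.

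Over the 6 libraries, and among 9672 other genes with 10 or more counts in every library, the levels most like Myc were those of Lgals1 (r = 0.997), Arf3 (r = 0.993) and Orai1 (r = 0.991), as log2 CPM. These r are descriptions over 6 libraries that share the split in depth and background between genotypes, and 295 genes had r above 0.9. Among the members, Mga ran opposite to Myc (r = -0.92) over the same libraries.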

How the data were processed

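Bulk RNA-seq counts of 6 libraries were used, 3 populations from WT and ING4-/- mice. The authors deposited raw counts per gene with exonic lengths, on mm10 per the labels; the sequencing company ran the first steps, and aligner, counter, annotation release and strand setting are not given in the sources used here. Symbols came from GENCODE M21 (49056 of 49315 identifiers found, 259 not).

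Genotypes were compared in edgeR 4.0.16 (R 4.3.3; TMM, filterByExpr, quasi-likelihood F test, Benjamini-Hochberg over all genes); SE is the absolute log2 fold change over the square root of F. Populations used the same test with genotype as a term. DESeq2 1.42.0 was an alternative. TPM was computed from counts and exonic length, and within-population log2 ratios from log2 CPM with a prior count of 2. Background was counts per kb over 1429 olfactory and vomeronasal receptor genes. Simulated counts had 1 dispersion for all genes, 1 mean per unchanged gene in all libraries and known log2 changes of 2 or more in 200 genes. Of these, 197 of 200 were recovered between genotypes (10 false calls, 32438 genes) and 183 of 200 for MPPs over LT-HSCs (6 false, 32453 genes). The simulation lacked the WT background and the trend on length, so it gives no rate of error for these data. Libraries of 1 population deviated together (r = 0.143, 0.110 and 0.121 over 9673 genes), so populations pair libraries and population was a replicate block in an alternative. No 2 libraries were duplicates.

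Members and gene lists were chosen with earlier results of these data known. Named genes were all members, Ing4, the Mlx branch, up to 2 highest and 2 lowest called genes per list, and the 3 genes most like Myc; a gene that this rule names is not reported here. Counts carry no molecular identifiers, so intervals and the floor of 3 counts cover counting error only.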

Additional observations from a re-analysis of the deposited data

Results flagged for a closer look

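Mxi1 is singled out because its difference between ING4-/- and WT cells had opposite directions between populations. The log2 ratio of LT-HSCs was 2.98, from 34 against 905 counts. That of ST-HSCs was -1.16, from 128 against 193 counts, and that of MPPs was -5.78, from 69 against 1. The WT counts of the 3 populations lay at or below background (126, 128 and 102 counts), so the WT side of each ratio cannot be told apart from it. Within ING4-/- cells, where background was near 0, LT-HSCs held 981 times the level of MPPs (95% counting interval 176 to 38786). With 1 library for each population and genotype, the difference between populations was not tested. Groups of 3 libraries were too small to be examined for outlying samples.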

How the results depend on the processing

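2 members were called between genotypes as reported, and also with DESeq2 size factors in edgeR, with population as a replicate block, in protein-coding genes and with each library left out (2 in every case). There was 1 with a minimum of 10 counts in every library, 1 after background subtraction and 1 after background subtraction with population as a replicate block, each time without Mycn, at 0.94 (adjusted p = 0.0833), 0.81 (0.115) and 0.80 (0.0864). With a minimum of 10 counts and the length trend removed there were 0, with Mycn at 0.91 (edgeR adjusted p = 0.118) and Mga at -0.27 (adjusted p = 0.568). There were 3 with upper-quartile normalization (Myc at 1.46), with no fold minimum (Myc at 0.87), and with DESeq2 and with no filter on low counts, both adding Mycl, which had 5 or fewer counts in every library. Genes called of the lists numbered 44, against 27 with DESeq2 size factors in edgeR, 15 with a minimum of 10 counts, 14 after background subtraction, 3 with background subtraction and the block and 26 in protein-coding genes. The number was 15 with a minimum of 10 counts and the length trend removed. Leaving out 1 library gave 30 to 50. Over all genes, 20041 were called, against 1739 with a minimum of 10 counts in every library, 8754 after background subtraction, 358 with background subtraction and the block and 8637 in protein-coding genes. That number was 1291 with a minimum of 10 counts and the length trend removed. With population as a replicate block, Ing4 (edgeR adjusted p = 0.0783) and Fbxl14 (0.157) no longer passed the adjusted p, and the other called genes named in the text did.

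Some directions reversed in comparisons where the member was not called. Between genotypes these were Mxd1 at 0.31 and Mxd4 at 0.14 with upper-quartile normalization, Mxi1 at -1.33 with population as a replicate block, and Max at -0.015 after background subtraction and at -0.16 with the block as well. With a minimum of 10 counts and the length trend removed, they were Max at -0.31, Mxd1 at 0.016 and Mxd4 at 0.064. Leaving out libraries, Mnt ran from -0.30 to 1.25 and Mxi1 from -1.36 to 1.20, both lowest without ING4-/- LT-HSCs. For MPPs over LT-HSCs, Mga was at -0.12 with DESeq2 size factors in edgeR, -0.075 with upper-quartile normalization, -0.12 with DESeq2, -0.096 with a minimum of 10 counts, -0.039 after background subtraction and -0.22 without the genotype term, where Mga in ST-HSCs over LT-HSCs was at -0.0083 and Mxd3 in MPPs over ST-HSCs at 0.14. For ST-HSCs over LT-HSCs, Myc was at -0.013, -0.054, -0.015 and -0.0017 with the first 4 of these settings. For MPPs over ST-HSCs, Mycn was at -0.070 with DESeq2 size factors in edgeR, -0.069 with DESeq2, -0.050 with a minimum of 10 counts and -0.012 after background subtraction. With 1 library left out, the log2 values of MPPs over LT-HSCs ran from -0.89 to 0.20 for Max, -0.47 to 0.47 for Mga, -0.66 to 0.28 for Mxd1, -0.33 to 9.61 for Mxd3 and -9.06 to 0.093 for Mxi1. Those of ST-HSCs over LT-HSCs ran from -0.23 to 0.77 for Mga, -0.71 to 0.13 for Mxd4, -3.18 to 4.02 for Mxi1 and -0.18 to 0.17 for Myc. Those of MPPs over ST-HSCs ran from -0.18 to 1.26 for Max, -0.50 to 0.10 for Mga, -0.26 to 0.11 for Mnt, -0.066 to 0.81 for Mxd1, -2.15 to 2.75 for Mxd3 and -0.053 to 0.18 for Mycn. The lone library of a population is then assumed to vary like the others. The cause of these changes was not tested. The shallower and higher-background WT libraries limit Mxd3, Mxi1, Mnt and Mycl most.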
